A study of Mus musculus with 4 samples.

Results

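The genes described here are Rufy4, Itm2a, Fxyd2, Uchl1 and St18, 5 of the 23420 gene symbols in the deposited table. They were taken by symbol, and were chosen on their normalised read counts, which were well above the detection limit in both wild-type libraries and far lower in both EpiKO libraries. The contrast between EpiKO and wild type is therefore a description for these 5 genes and is not tested. Log2 differences are EpiKO minus WT. The libraries are RNA-seq of myeloid cells sorted for the myeloid integrin CD11b and for CD200R1, to which the surface protein CD200 binds. The cells infiltrated orthotopic squamous carcinomas of the skin of FVB/N mice. The 2 WT libraries came from tumours with an intact Cd200 gene, and the 2 EpiKO libraries from K14Cre;CD200fl/fl tumours, in which a Cre recombinase driven by the keratin 14 promoter deletes Cd200 in epidermal cells, whereas the sorted cells are myeloid. The sources used here do not give the age or sex of the mice, pooling, or how the tumours were started, nor do they say whether the 2 libraries of a group came from separate mice, so the spread between them may be technical.

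The proteins of these 5 genes belong to different families. RUFY4 has a RUN and a FYVE domain, binds small GTPases of late endosomes and lysosomes, and is known from dendritic cells treated with interleukin 4, where it promotes autophagy and lysosome clustering. ITM2A is a single-pass membrane protein with a BRICHOS domain, known from T cells, cartilage and muscle. FXYD2 is the gamma subunit of the sodium pump and is best known from kidney tubules, UCHL1 is a ubiquitin hydrolase abundant in neurons, and ST18 is a zinc finger transcription factor of the MYT family studied in neurons and pancreatic islets. None of the 5 is a standard macrophage marker.

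Between 15884132 and 21244158 reads per library fell on genes, and values are normalised read counts unless another scale is named. A count of 3 reads, the limit that a count of 0 allows, stands for a value of 2.52 to 3.48. Macrophage genes dominated all 4 libraries, with summed values of 10 markers between 310965 and 406122 and none of them called by limma (1 higher at an unadjusted p under 0.05, 1 called by DESeq2 and 0 by edgeR on the recovered reads). Keratinocyte transcripts stood apart in WT replicate 1, where 9 markers summed to 4928, against 116 in WT replicate 2 and 62.4 to 70.0 in EpiKO.

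Rufy4 had the lowest EpiKO level of the group. In the order replicate 1, replicate 2, WT had values of 101 and 113 and EpiKO values of 3.23 and 0.945. These stand for 87 and 134 reads in WT and 3 and 1 in EpiKO, so the gene was near the detection limit in both EpiKO libraries and evenly read in WT. The WT over EpiKO ratio from pooled reads was 53.5, with an exact binomial 95% interval of 20.6 to 198. Such intervals cover counting error only, and the values count reads, not molecules. On the log2(value + 1) scale the difference was -5.23. It was the most negative of the 12463 tested genes, those that reached a value of 10 in 2 or more libraries. Rufy4 entered that set through its WT values alone. Its rank depends on the added 1, since with a pseudocount of 5 Rufy4 was at -3.996 and Itm2a at -4.04. Here and below, fewer cells of a type and less RNA per cell cannot be told apart in bulk samples.

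Itm2a was the member with the largest spread within WT. WT replicate 1 had a value of 626 and WT replicate 2 one of 278, while EpiKO had 22.6 and 18.9. The lower WT library was still 12.3 times above the higher EpiKO library. Means were 452 ± 246 (SD, n = 2) for WT and 20.8 ± 2.62 (SD, n = 2) for EpiKO, a log2 difference of -4.27. The pooled reads, 871 against 41, gave a ratio of 20.6 with a 95% interval of 15.0 to 28.9.

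Fxyd2 had the highest normalised count of the 5 in WT. Values were 1012 and 619 in WT and 85.0 and 83.2 in EpiKO, so the EpiKO libraries lay almost on top of each other while WT replicate 1 was 1.64 times above WT replicate 2. The means of 815 ± 278 (SD, n = 2) and 84.1 ± 1.33 (SD, n = 2) differed by -3.22 on the log2 scale. Its 1609 WT reads and 167 EpiKO reads gave a ratio of 9.33 (95% interval 7.95 to 11.01).

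Uchl1 had close replicates in both groups. It had values of 115 and 105 (WT) against 10.8 and 11.3 (EpiKO), from 99, 125, 10 and 12 reads. The log2 difference was -3.20, and the ratio from pooled reads was 9.86 (95% interval 6.35 to 16.0). Of its 1632 exon bases, 295 are shared with the antisense RNA gene Uchl1os, whose reads cannot be told apart from those of Uchl1 where strand was not used in counting.

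St18 had the smallest gap of the 5, and WT replicate 2 was its higher WT library. It had values of 396 and 531 (WT) against 94.7 and 83.2 (EpiKO), with 88 reads in each EpiKO library. Means were 464 ± 95.3 (SD, n = 2) and 89.0 ± 8.18 (SD, n = 2), a log2 difference of -2.36 and a ratio from reads of 5.36 (95% interval 4.56 to 6.33). In all 5 genes both EpiKO libraries lay below both WT libraries, a pattern found in 23.8% of tested genes, and the choice of the members fixed it here. A WT mean of at least 107 and a WT over EpiKO ratio of means of at least 5.21, the smallest among the members, were met without overlap by 40 tested genes including these 5.

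**Figure D1:**
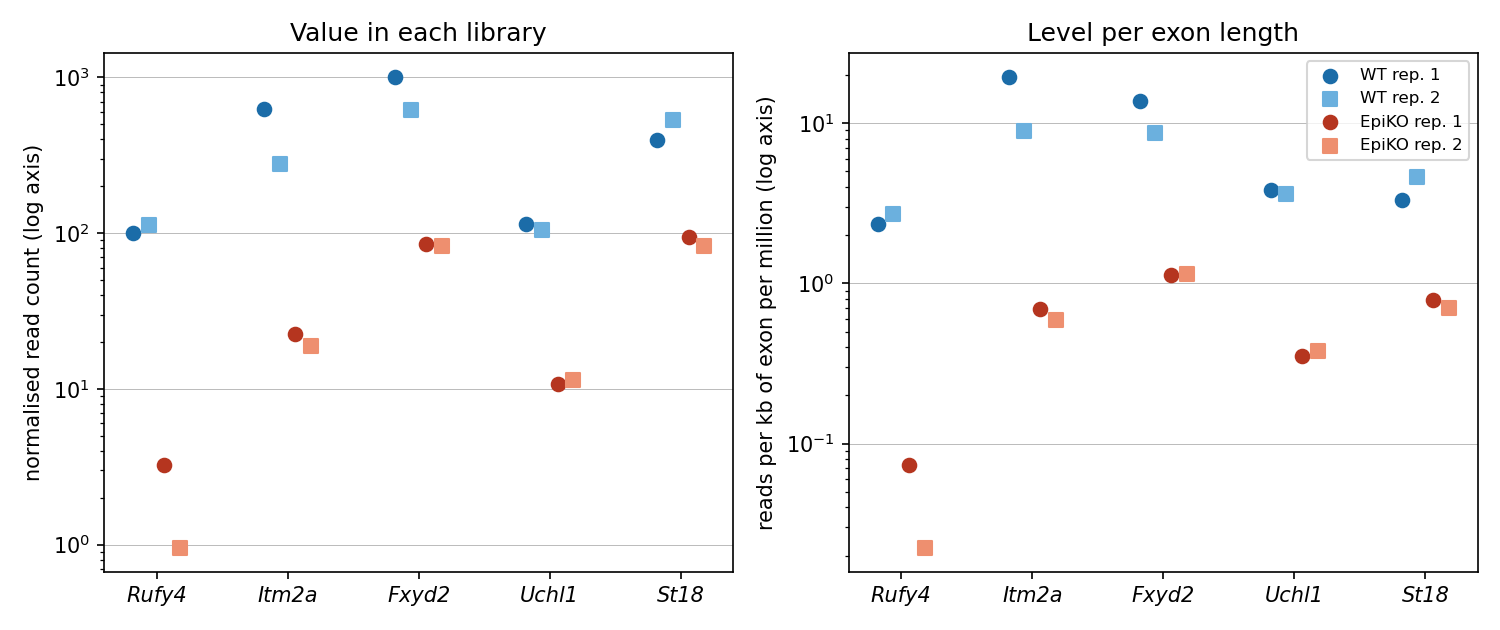
Normalised read counts (left) and reads per kb of exon scaled by the library total (RPKM) (right) of the 5 genes, both on log axes, with 1 point per library. Each gene has both EpiKO points below both WT points, from 0.945 for Rufy4 in EpiKO replicate 2 to 1012 for Fxyd2 in WT replicate 1.

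Levels can be compared between genes only per length, here as RPKM, the reads per kb of annotated exon scaled by the library's assigned reads. On that scale Itm2a stood at 19.5 and 8.93 in WT and Fxyd2 at 13.7 and 8.65, ranges that overlap. St18 at 3.33 and 4.60 and Uchl1 at 3.82 and 3.61 also overlapped, and Rufy4 at 2.35 and 2.71 was below both. In EpiKO the order of these levels was Fxyd2 at 1.13 and 1.14, St18 at 0.782 and 0.705, Itm2a at 0.692 and 0.594, Uchl1 at 0.352 and 0.381, and Rufy4 at 0.0740 and 0.0222, with no overlap between neighbours. Itm2a thus ranked above Fxyd2 in both WT libraries and below Fxyd2 and St18 in both EpiKO libraries. The EpiKO levels of Itm2a rest on 21 and 20 reads. The 13 annotated transcripts of Fxyd2 cover 4005 exon bases together and the 13 of St18 cover 6464. The levels per kb of both genes may thus be understated, and the ranks against Itm2a may depend on this.

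The members lie on 4 chromosomes of mm10. Rufy4 is on chromosome 1 from 74125541 to 74148223 and St18 on the same chromosome from 6487231 to 6860940, both on the plus strand. Itm2a lies on chromosome X from 107397099 to 107403376 on the minus strand, Fxyd2 on chromosome 9 from 45399669 to 45410278 and Uchl1 on chromosome 5 from 66676091 to 66687234, both on the plus strand. All are protein-coding, and apart from Uchl1 none shares exon sequence with another annotated gene.

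Sequence before the transcription start is shown for the 3 members in the RefSeq promoter table of GRCm38.p6, the build also called mm10, because these genes were low together in EpiKO and their windows can be read for shared letters. Each stretch runs 5′ to 3′ on the gene's strand and ends before the first annotated exon base of the gene. The stretches are chr1:74125291-74125540 on the plus strand for Rufy4, chrX:107403377-107403610 on the minus strand for Itm2a and chr5:66675871-66676090 on the plus strand for Uchl1. Capitals mark matches, on either strand, to the motifs named after the sequences.
Rufy4: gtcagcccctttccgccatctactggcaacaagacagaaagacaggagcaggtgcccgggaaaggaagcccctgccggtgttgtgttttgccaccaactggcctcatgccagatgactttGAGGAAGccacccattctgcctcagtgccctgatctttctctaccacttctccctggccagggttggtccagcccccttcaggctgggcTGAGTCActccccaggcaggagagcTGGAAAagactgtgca
Itm2a: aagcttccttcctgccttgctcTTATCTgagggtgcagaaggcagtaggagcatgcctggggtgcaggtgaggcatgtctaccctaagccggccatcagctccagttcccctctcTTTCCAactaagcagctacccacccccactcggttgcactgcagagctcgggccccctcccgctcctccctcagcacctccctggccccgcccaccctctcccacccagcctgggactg
Uchl1: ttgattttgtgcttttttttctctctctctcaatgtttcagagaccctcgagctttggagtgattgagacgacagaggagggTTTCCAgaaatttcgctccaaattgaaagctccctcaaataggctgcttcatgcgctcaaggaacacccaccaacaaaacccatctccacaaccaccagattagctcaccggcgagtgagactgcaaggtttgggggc

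The motifs searched on both strands were TGANTCA for AP-1, TGGAAA for NFAT, GAGGAAG for PU.1, TGACGTC for CREB, CACGTG, the palindromic E-box, and AGATAA for GATA factors, none of which overlapped another in these windows. The NFAT letters were in the 250 bases before the RefSeq start of all 3 members and of 18.6% of 32851 promoter windows. Counted back from the end of each printed stretch to the match's first base on the gene's strand, they lay at 16 in Rufy4, 119 in Itm2a and 138 in Uchl1. The RefSeq start lies 0, 16 and 30 bases past the end of these stretches. Rufy4 also held the AP-1 letters at 41, as did 6.75% of windows, and the PU.1 letters at 130, as did 10.6%. Itm2a held the GATA letters at 212, found in 9.99% of windows. The CREB and E-box letters, in 2.78% and 6.02% of windows, were not in these 3. A match describes letters only.

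Close relatives of each member were measured in the same libraries, and the rule that chose the members did not use them. Of 17 relatives in 5 families, 9 passed the filter on low values, and none was called by limma at a Benjamini-Hochberg adjusted p under 0.05, where 0.947% of all tested genes were called. None had an unadjusted p under 0.05 by limma, and neither edgeR nor DESeq2 on the recovered reads called one. Among the tested relatives, Itm2b, Fxyd5, Uchl3 and Uchl5 had both EpiKO libraries below both WT libraries, as did 23.8% of all tested genes. Rufy2 had both above.

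None of the 3 other RUFY genes was called, although the groups of Rufy2 did not overlap, with EpiKO higher. Rufy1, an endosomal tether, had values of 1085 and 1189 (WT) against 990 and 1087 (EpiKO), with a log2 difference of -0.13 (SE 0.115, adjusted p = 0.674 by limma). Rufy2 stood at 250 and 269 against 336 and 308, and Rufy3, known from axon growth, at 228 and 250 against 249 and 267, with log2 differences of 0.31 (SE 0.143) and 0.11 (SE 0.151). Of the reads per kb of the 4 RUFY genes, Rufy4 gave 8.85% and 9.02% in WT and 0.326% and 0.0886% in EpiKO.

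Itm2a is the least abundant gene of its family in these cells. Itm2b, whose product also carries a BRICHOS domain and is cut by furin, ADAM10 and SPPL2 proteases, had values of 54786 and 46184 (WT) against 29816 and 44292 (EpiKO) (log2 difference -0.47, SE 0.234, adjusted p = 0.426 by limma). Itm2c was at 6246 and 4832 against 4681 and 7398, with overlapping groups and a log2 difference of 0.10 (SE 0.262). Itm2a gave 1.57% and 0.839% of the family's reads per kb in WT and 0.101% and 0.0565% in EpiKO. Furin, Adam10, Sppl2a and Sppl2b were tested and none was called, with log2 differences from -0.098 to 0.32.

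Among FXYD genes, Fxyd5, also called dysadherin, was the abundant one, with 18886 and 20454 (WT) against 18795 and 12831 (EpiKO) (log2 difference -0.34, SE 0.211, adjusted p = 0.535 by limma). Fxyd2 gave 5.27% and 3.06% of the family's reads per kb in WT and 0.471% and 0.672% in EpiKO. Fxyd3, an epithelial member, was at 155 in WT replicate 1 and at 0.841, 1.08 and 0 in the others, the same library in which keratinocyte markers were high. Fxyd1, Fxyd6 and Fxyd7 had values of at most 10.9 in any library, and Fxyd4 had no read. Of 8 genes for subunits of the sodium pump, to which FXYD proteins bind, 3 were tested and none was called by limma. The beta subunit gene Atp1b3 had values of 6170 and 5592 (WT) against 5806 and 4894 (EpiKO), a log2 difference of -0.14 (SE 0.137, adjusted p = 0.709 by limma).

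The other ubiquitin C-terminal hydrolases were near level between the groups. Uchl3 had values of 413 and 400 (WT) against 380 and 355 (EpiKO) (log2 difference -0.14, SE 0.125, adjusted p = 0.669 by limma). Uchl5, a proteasome-bound hydrolase, had a log2 difference of -0.13 (SE 0.117) and Bap1, a nuclear one, of -0.0026 (SE 0.102). Uchl4, a copy of Uchl3 with which it could share reads, had 1 read in all. The share of Uchl1 in the family's reads per kb was 10.6% and 9.52% in WT and 1.11% and 1.24% in EpiKO. None of the 4 ubiquitin precursor genes was called, with a median log2 difference of -0.072.

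For St18 there was no expressed relative to set beside it. Myt1 and Myt1l had no read in any library, so St18 was the only MYT gene detected. The SIN3 corepressor, which MYT family proteins are known to recruit, had 9 tested genes, which gave no call by limma and had log2 differences from -0.39 to 0.054. Sin3b had values of 1912 and 1646 (WT) against 1503 and 1513 (EpiKO).

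**Figure D2:**
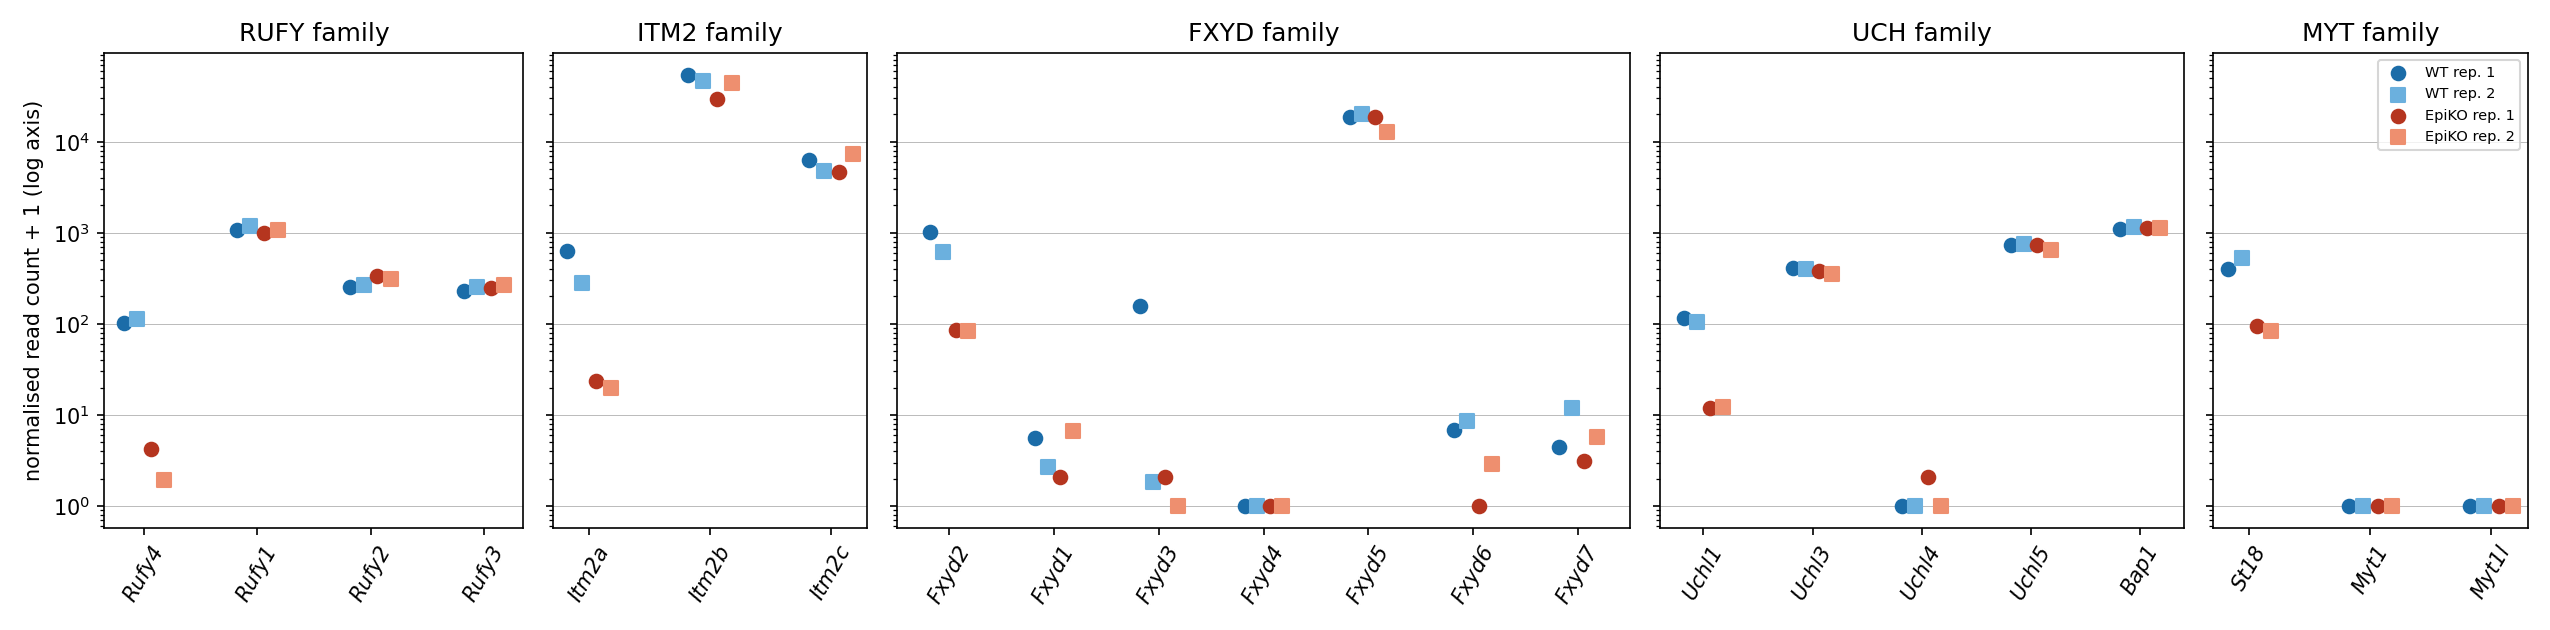
Normalised read count plus 1 on a log axis for the 5 genes (first in each panel) and their relatives, with 1 point per library. For Rufy1, Rufy3, Itm2c and Bap1 the ranges of the WT and EpiKO points touch or overlap, and Myt1, Myt1l and Fxyd4 lie at 1, which stands for no read.

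Of the lysosomal machinery around RUFY4, only tethering genes were listed, so other lysosomal genes are not covered by this list. Of 17 genes of lysosome tethering through the GTPases Rab7 and Arl8, none was called by limma, and the median log2 difference was 0.012 beside -0.0021 over all tested genes. Rab7 itself had values of 3402 and 3031 (WT) against 3660 and 3710 (EpiKO). Vps18, a subunit of the HOPS tethering complex, had the smallest p of this list, with 1591 and 1347 against 945 and 1012, a log2 difference of -0.58 (SE 0.127) and an adjusted p = 0.120 by limma (0.0292 by DESeq2 on recovered reads).

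Autophagy genes gave no call by limma among 21 tested, with a median log2 difference of -0.012. Of these, 3 were lower and 1 higher at an unadjusted p under 0.05 by limma, a level reached by 15.6% of all tested genes. Sqstm1, the cargo receptor p62, had values of 11516 and 7934 (WT) against 5040 and 6217 (EpiKO) (log2 difference -0.77, SE 0.221, adjusted p = 0.198 by limma and 0.0204 by DESeq2). Mitf, a transcription factor of lysosome genes, stood at 1227 and 1236 against 965 and 777 (log2 difference -0.51, SE 0.139, adjusted p = 0.180 by limma).

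Receptor and signalling genes of interleukin 4 and GM-CSF, cytokines under which RUFY4 is known to be made, were read in all 4 libraries. Irf4 was the lowest of them, at 365 and 215 (WT) against 191 and 181 (EpiKO). None of 10 genes was called by limma, and the median log2 difference was 0.29, with 8 of 10 above 0. Il4ra, the interleukin 4 receptor, had values of 11329 and 11424 (WT) against 14936 and 17128 (EpiKO) (log2 difference 0.49, SE 0.129, adjusted p = 0.167 by limma, 0.0219 by DESeq2). Il2rg, the common gamma chain, went the other way, from 2897 and 3284 to 2163 and 1710 (log2 difference -0.68, SE 0.155, adjusted p = 0.131 by limma, 0.0130 by DESeq2). Over all 12 lists of relatives and pathways, 77 of 90 genes were tested. limma and edgeR called none of them, with 5 lower and 4 higher at an unadjusted p under 0.05 by limma, a level reached by 15.6% of all tested genes. DESeq2 called 5 of the 77, of which Vps18, Sqstm1, Il2rg and Il4ra are described above. Over all 12463 tested genes DESeq2 called 854, so its calls in these lists are given beside a high background.

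The members differed in how the WT libraries compared with each other, which the choice by group did not fix. Itm2a and Fxyd2 were 2.25 and 1.64 times higher in WT replicate 1 than in WT replicate 2, while Rufy4, Uchl1 and St18 had ratios of 0.895, 1.09 and 0.746. A WT replicate 1 value at least 1.5 times that of WT replicate 2 was found in 9.28% of tested genes. WT replicate 1 is also the library with keratinocyte transcripts, and its mast cell and basophil markers summed to 289, against 34.5 in WT replicate 2 and 114 and 20.8 in EpiKO. Every other cell type list except the neutrophil one also had a higher sum in WT replicate 1 than in WT replicate 2. Fibroblast markers, for example, summed to 31236 and 20844 in WT, and neutrophil markers to 1367 and 2690. The part of any of these cells in the values of Itm2a and Fxyd2 was not tested. Without WT replicate 1 the log2 difference was -3.69 for Itm2a and -2.86 for Fxyd2, and the choice of the members fixed its sign. Leaving out each of the 4 libraries in turn gave -4.85 to -3.69 for Itm2a, -3.57 to -2.86 for Fxyd2, -3.26 to -3.14 for Uchl1 and -2.57 to -2.15 for St18. Rufy4 had -5.79 and -4.67 without EpiKO replicate 1 and 2, and with 1 WT library alone it did not pass the filter.

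Genes with the most similar profile over the 4 libraries were found by the Euclidean distance of log2(value + 1), centred on each gene's mean, among genes whose mean value reached 20. Nearest to Rufy4 were Slc9b2, a sodium and proton exchanger, Cyp2s1, a cytochrome P450, and Ctsk, which encodes cathepsin K, at distances of 0.636, 0.694 and 0.936. Itm2a lay nearest to Fndc1, Ctsk and the cadherin gene Cdh10 (0.513, 0.547 and 0.649). Cdh10 had 89.2 and 39.5 (WT) against 1.08 and 0.945 (EpiKO), the last 2 being 1 read each. Fxyd2 and Uchl1 were among each other's 3 nearest genes, at 0.419, and both had Fibin beside them, with 123 and 76.5 (WT) against 10.8 and 10.4 (EpiKO). The list of Fxyd2 also held Slit3, a guidance ligand, at 0.686, and that of Uchl1 held Kank1, a cytoskeletal adaptor, at 0.289. St18 had Srgap3, a GTPase-activating protein, at 0.139, with 385 and 467 in WT and 94.7 and 78.4 in EpiKO, followed by Traf1, a TNF receptor adaptor, at 0.358 and the lipid transporter Spns2 at 0.387. Likeness over 4 libraries in 2 groups rests mainly on the size of the gap between the groups.

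**Figure D3:**
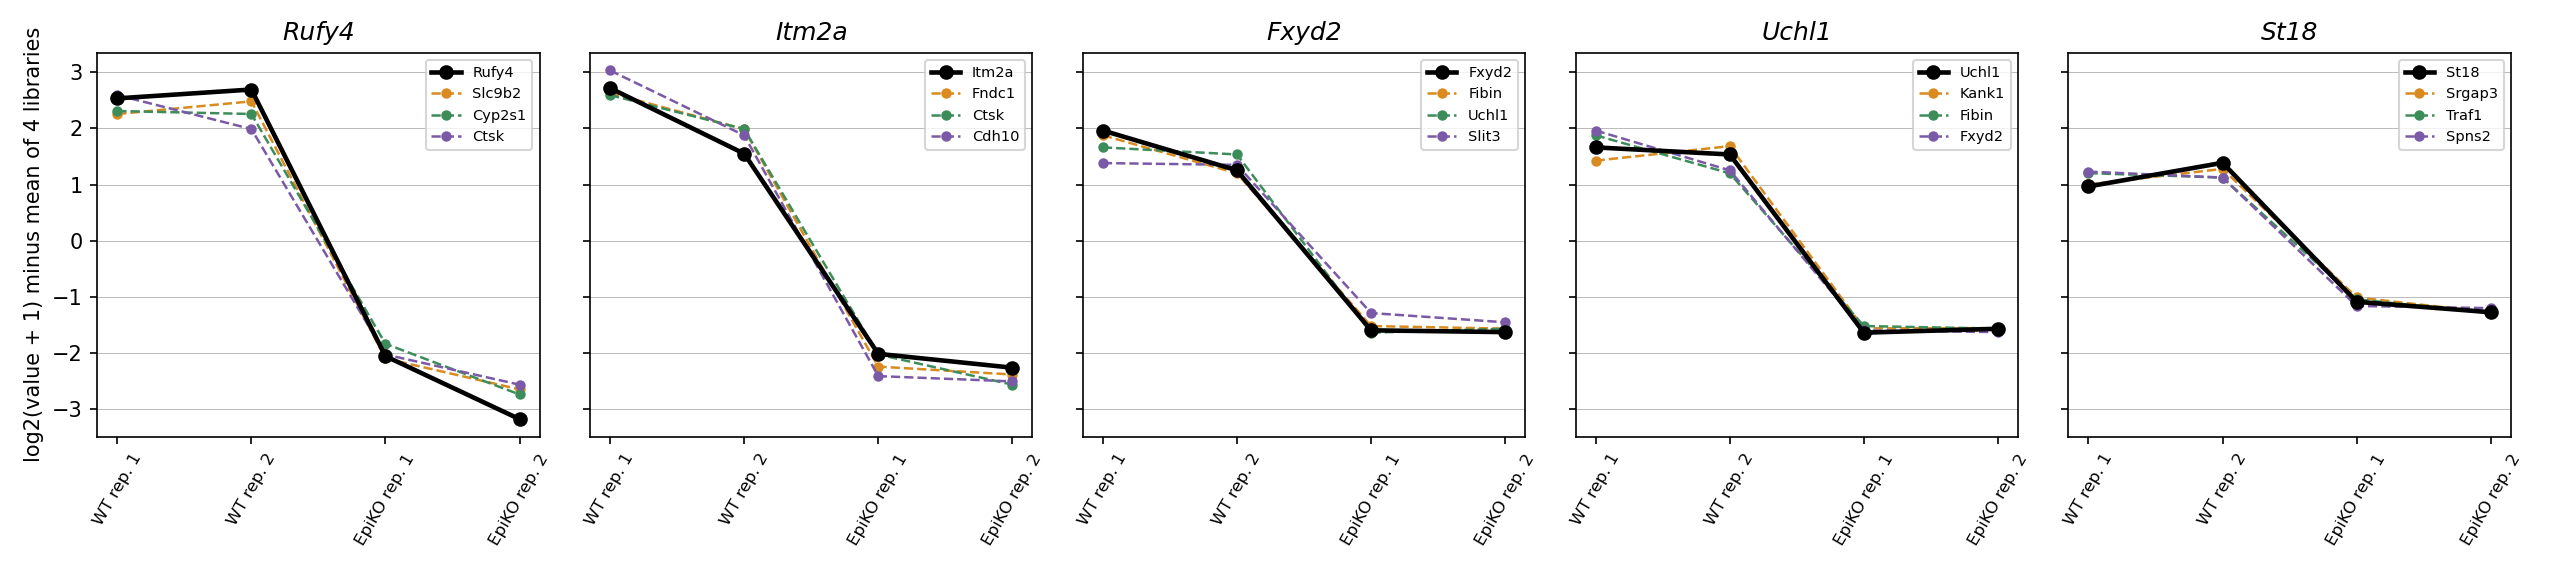
Centred log2(value + 1) profiles of each of the 5 genes (black) and its 3 nearest genes (dashed) over the 4 libraries. Fxyd2 and Fibin, at a distance of 0.140, and St18 and Srgap3, at 0.139, run nearly together, while Rufy4 lies below its neighbours in EpiKO replicate 2.

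Markers of cell types in which these genes are known were set beside the members. For Itm2a and T cells, Cd3e, Cd3d and Cd3g had values of at most 2.32 in any library and Cd8a had no read, and 5 of 10 T cell markers were under 10 in all libraries. Il7r, the interleukin-7 receptor chain of that list, had values of 416 and 224 (WT) against 496 and 282 (EpiKO), with overlapping groups. Cd4, which macrophages also carry, had values of 1755 and 575 (WT) against 100.1 and 893 (EpiKO). For Uchl1 and St18 and neural cells, the 6 Schwann cell and glia markers summed to 1244 and 1176 in WT and 1364 and 877 in EpiKO. In that list Sox10 was at most at 2.32, while Mbp had values of 1219 and 1148 (WT) against 1325 and 839 (EpiKO). Snap25, Nefm and Chga had no read. The 10 neuron and neuroendocrine markers summed to 180 and 156 in WT and 156 and 193 in EpiKO, with overlapping groups and no call by limma among 4 tested. That overlap rested on the neurofilament gene Nefl. Without it, a comparison chosen after seeing the data, the other 9 markers had sums of 180 and 154 (WT) against 66.7 and 99.2 (EpiKO), and these groups did not overlap. Map2, a microtubule-associated protein gene, had values of 63.7 and 49.6 (WT) against 17.2 and 22.7 (EpiKO), with a limma adjusted p of 0.146. Syp, which encodes a synaptic vesicle protein, had values of 74.2 and 89.9 (WT) against 40.9 and 51.0 (EpiKO), with a limma adjusted p of 0.259. Nefl itself had values of 0 and 2.52 (WT) against 89.4 and 93.6 (EpiKO) and narrowly missed the threshold by limma, while edgeR and DESeq2 on the recovered reads each called this gene.

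Osteoclast markers, from the bone-resorbing cells of the myeloid lineage, summed to less in both EpiKO libraries than in either WT library. All 9 tested had a log2 difference below 0, with a median of -1.61, and 6 of the 9 were not called by limma. At an unadjusted p under 0.05 by limma 7 were lower, a level that 15.6% of all tested genes reached in either direction. DESeq2 on the recovered reads called 7, beside 854 of all 12463 tested genes. The 11 genes summed to 47880 and 37819 in WT and to 8695 and 10155 in EpiKO, and 3 of 9 tested, Ctsk, Nfatc1 and Atp6v0d2, were lower by limma, where 0.53% of all tested genes were called lower. No gene of the table was called when either WT library was left out, these 3 included. Acp5, with the highest mean value of the list, had values of 21138 and 14872 (WT) against 2099 and 3864 (EpiKO). Its log2 difference was -2.64 (SE 0.340, adjusted p = 0.0540 by limma). Ocstamp and Mmp9, also not called by limma, had log2 differences of -2.40 (SE 0.568) and -1.24 (SE 0.280). Dcstamp, needed for fusion of osteoclast precursors, had overlapping values of 717 and 313 (WT) against 617 and 342 (EpiKO), and Itgb3, an integrin chain, of 170 and 151 against 126 and 164. Calcr and Oscar, of which the first defines mature osteoclasts, reached at most 10.9 in WT and 0.945 in EpiKO. Of the Langerhans cell list, Cd207 was lower, at 1201 and 590 against 23.7 and 23.6, while Epcam followed the keratinocyte genes with 156 in WT replicate 1 and 7.57, 6.46 and 7.56 in the others. Cd24a of the same list had values of 298 and 151 (WT) against 1436 and 342 (EpiKO), a log2 difference of 1.72 that was not called by limma. The 10 dendritic cell markers summed to 2062 and 1021 in WT and 1163 and 2279 in EpiKO, with no call among 8 tested by limma, edgeR or DESeq2. Most of each sum was Itgax, at 1545 and 731 (WT) against 951 and 1944 (EpiKO). Ccr7, at 116 and 56.3 against 32.3 and 35.9, was the 1 lower at an unadjusted p under 0.05 by limma. Flt3 had 22.0 and 46.2 against 5.38 and 21.7. Of the 8, 4 had log2 differences below 0 and 4 above. The part of these cells in the members' values was not tested.

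**Figure D4:**
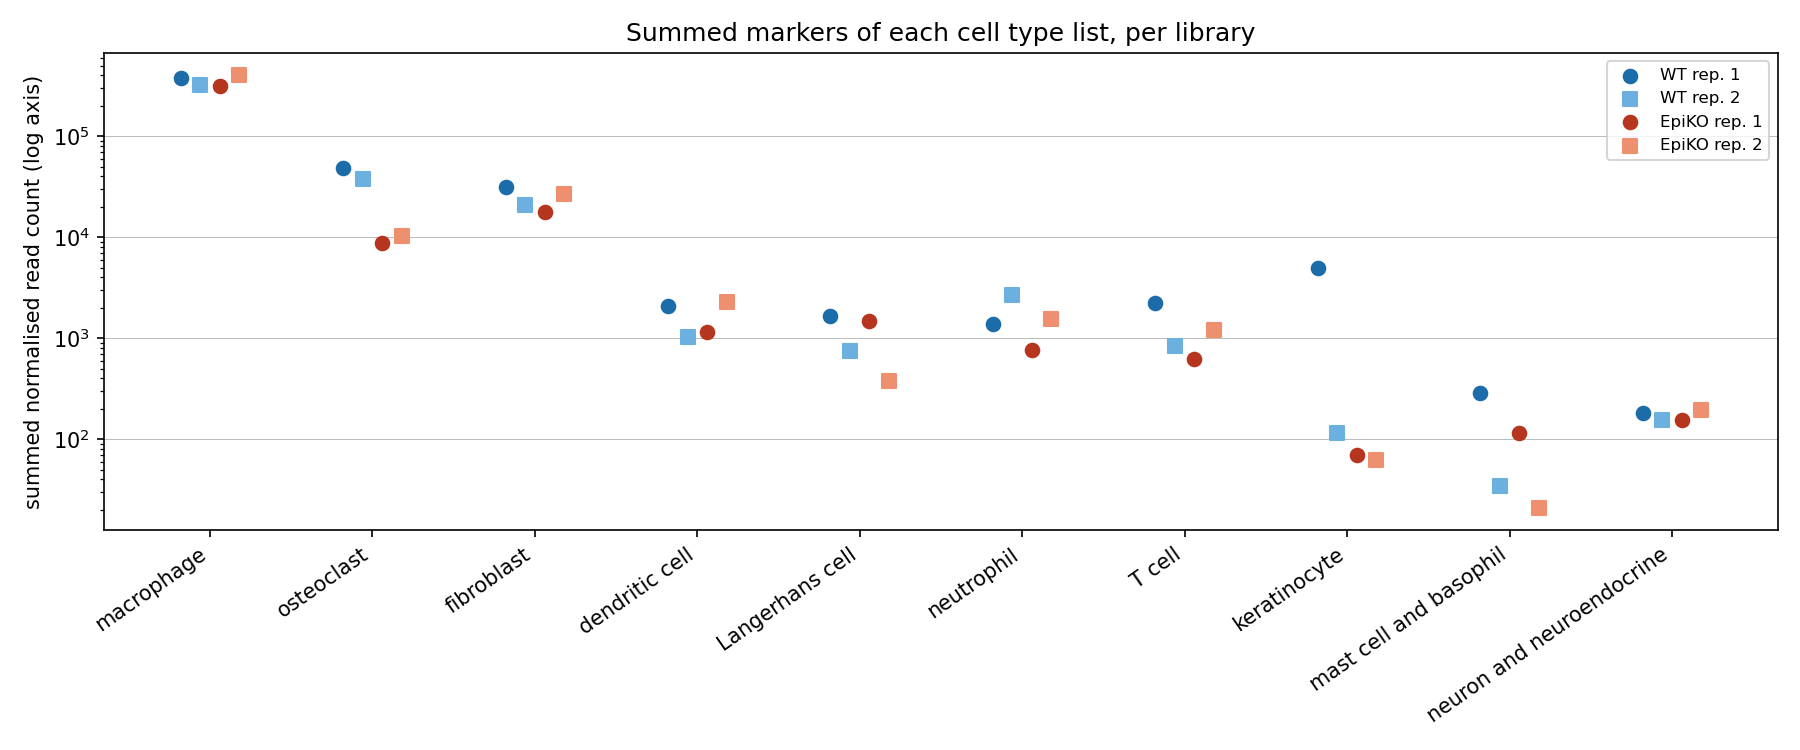
Summed normalised read counts of the markers of 10 cell type lists in each library, on a log axis. Osteoclast markers separate the groups (47880 and 37819 in WT, 8695 and 10155 in EpiKO), keratinocyte markers are high in WT replicate 1 alone, and the sum of the neuron and neuroendocrine markers overlaps between the groups, which it does not without Nefl.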

How the data were processed

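RNA was measured in 2 WT and 2 EpiKO libraries made by poly-A selection with an Illumina TruSeq kit, per the labels' protocols. The submitters' processing notes name mm10, STAR 2.5.2b, featureCounts 1.5.0-p3, bcl2fastq 2.17 and DESeq2, with no further settings. Annotation and strand setting: not given in the sources used here. Each deposited signal is a gene's read count after the authors scaled it by a size factor of its library: 100% of values came out as whole numbers of reads within a tolerance of 1e-06. Replicate numbers follow sample order and pair nothing.

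EpiKO was compared with WT on log2(value + 1) by limma 3.58.1 in R 4.3.3, with trend and robust moderation, over the 12463 genes that reached a value of 10 in 2 or more libraries. P-values are two-sided and Benjamini-Hochberg adjusted over all of them, and calls are at an adjusted p under 0.05. Standard errors are moderated. A fold change on this scale is understated for low genes. The fit was tested on simulated data. edgeR 4.0.16 and DESeq2 1.42.0 on the recovered reads, chosen after seeing the data, were alternatives, beside other pseudocounts, filters, scaling, no trend and leaving out each library.

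The 5 genes and all lists were chosen with earlier results of these data known. Named genes are the 5, all family genes, up to 3 genes of each pathway list by p and of each cell type list by level, and 3 nearest profiles per member. Genes named outside this were chosen after their values were seen. Coordinates and exon lengths are from GENCODE M21. Promoters of 3 of the 5 genes are from RefSeq (GRCm38.p6), and Fxyd2 and St18 were not in that table. The values of some genes that this rule names are not reported.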

Additional observations from a re-analysis of the deposited data

How the results depend on the processing

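Each group has 2 libraries, so counts of calls depend on every library and on the tool. limma called 66 genes lower and 52 higher. Without the trend it called 18 and 13, and leaving out 1 library gave 0 to 5 lower and 0 to 4 higher, with 0 in both directions without either WT library. There the lone library of a group is assumed to vary like the other group. DESeq2 on the recovered reads called 389 lower and 465 higher, and edgeR 66 and 54. Among the relatives and pathway genes, where limma called 0 lower and 0 higher, DESeq2 called 3 lower and 2 higher, and each other setting called none. With a pseudocount of 5 the log2 difference was -3.996 for Rufy4 and -2.84 for Uchl1, since both have few EpiKO reads, and DESeq2 gave -3.31 for Uchl1. Every log2 difference of the 5 genes stayed negative in the settings run, which their choice fixed in advance. No paired analysis was possible because the labels give the libraries no shared replicate numbers.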

Other observations

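The protein-coding genes next to each member on its chromosome, looked up after the members' values were known, had smaller differences or hardly any reads, and none of the tested ones was called by limma. Tns1, 1.09 kb before Rufy4, had values of 986 and 815 (WT) against 683 and 604 (EpiKO) (log2 difference -0.48, SE 0.144, adjusted p = 0.208 by limma). On the other side of Rufy4, 5.77 kb away, lies the chemokine receptor gene Cxcr2, itself in the neutrophil list. It had values of 10.4 and 113 (WT) against 13.995 and 5.67 (EpiKO), so it was high in WT replicate 2 alone. Of the same list, S100a8, S100a9 and Retnlg were also highest in that library, at 459, 737 and 166. Csf3r was not, with values of 1154 and 1215 (WT) against 514 and 1323 (EpiKO). The part of neutrophils in the value of Cxcr2 was not tested. Rb1cc1, an autophagy scaffold gene 211 kb before St18, and Pcmtd1, 228 kb after it, had log2 differences of -0.12 (SE 0.119) and -0.15 (SE 0.142). Apbb2, 57.3 kb before Uchl1, stood at 279 and 209 against 156 and 189 (log2 difference -0.49, SE 0.218, adjusted p = 0.372 by limma), and Limch1 on the other side was at 8.11 in WT replicate 1 and without reads elsewhere. The neighbours of Itm2a, Gpr174 and Tbx22, and those of Fxyd2, Fxyd6 and Dscaml1, had values of at most 7.57 in any library, so Itm2a and Fxyd2 were read between genes that were nearly silent.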
